A study of Mus musculus with 9 samples.

Results

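The nuclear genes of the respiratory chain and the ATP synthase were compared between livers of mice on a high-fat diet and on a control diet. Members were taken by symbol from the platform annotation, as genes named Nduf, Sdha to Sdhd, Uqcr, Cox4 to Cox8 or Atp5. This gave 89 of the 17514 genes tested, read by 175 probe sets, of which 49 genes had several. By role they fall into 6 core subunits, 28 accessory subunits and 8 assembly factors of complex I, 4 subunits of complex II, 8 of complex III, 18 of complex IV and 17 of complex V. Ndufa4 and its paralogue Ndufa4l2 were placed in complex IV, where the Ndufa4 protein is known to reside. The rule did not use any measured value.

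Liver RNA of c57Bl/6 mice was read on 9 Affymetrix arrays, 4 of the control group and 5 of the high-fat diet (HFD) group. The mice were kept on chow until the study, and the HFD came from Harlan-Teklad, with 21% fat, a source of 42% of the calories. The labels leave out the make-up of the control diet, the length of feeding, the age and sex of the mice, any batch, and whether each array is an animal of its own. P-values therefore reflect how far the 9 arrays differ among themselves, and part of that can be technical.

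Complexes I to IV pass electrons from NADH and succinate to oxygen and build a proton gradient across the inner mitochondrial membrane, and complex V, the ATP synthase, uses that gradient to make ATP. Most of their subunits are encoded in the nucleus, and the promoters of these genes are known to bind nuclear respiratory factors, ETS factors and YY1, with PGC-1 coactivators acting on them. In the liver the chain takes up the electrons that fatty acid oxidation and the citric acid cycle release.

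Promoter sequence, from 250 bases before to 50 after the start of the gene, was matched for 73 of the 89 genes (RefSeq, GRCm38.p6). The letters GCGCA, any base and then GCGC, a core of the nuclear respiratory factor 1 (NRF1) motif, stood on either strand in 17 of them (23.3%), against 8.8% of the 13922 tested genes with a promoter. The ETS core CCGGAAG stood in 19 (26.0%) against 15.3%, and the YY1 letters AANATGGC stood in 17 (23.3%) against 8.2%. The estrogen-related receptor letters TNAAGGTCA stood in 3 (4.1%) against 1.2%. Either the NRF1 or the ETS letters stood in 32 (43.8%) against 22.2%. By complex, the NRF1 letters stood in 6 of 15 matched ATP synthase genes and in 1 of 12 matched complex IV genes. YY1 letters stood in 9 of 26 accessory subunit genes of complex I and in none of the 12 of complex IV. These shares are a description of sequence and were not tested. Promoters of 3 members are printed from 200 bases before to 20 after the start, 5′ to 3′ on the strand of the gene, chosen in turn as the member with the lowest p among those whose NRF1, ETS or YY1 letters lie wholly within the printed stretch. Capitals mark the matches, and CTTCCGG is the ETS core read on the other strand.
Cox6a1, chr5:115348939-115349158, minus strand: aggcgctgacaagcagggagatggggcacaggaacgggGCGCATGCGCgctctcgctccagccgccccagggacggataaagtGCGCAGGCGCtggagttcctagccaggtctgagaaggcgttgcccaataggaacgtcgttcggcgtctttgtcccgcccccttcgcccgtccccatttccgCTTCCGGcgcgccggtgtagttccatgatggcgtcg
Sdhb, chr4:140961071-140961290, plus strand: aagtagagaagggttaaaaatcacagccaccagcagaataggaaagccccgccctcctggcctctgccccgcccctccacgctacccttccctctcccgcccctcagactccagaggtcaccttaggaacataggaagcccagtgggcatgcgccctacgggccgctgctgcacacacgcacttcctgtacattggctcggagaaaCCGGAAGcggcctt
Ndufs8, chr19:3912755-3912974, minus strand: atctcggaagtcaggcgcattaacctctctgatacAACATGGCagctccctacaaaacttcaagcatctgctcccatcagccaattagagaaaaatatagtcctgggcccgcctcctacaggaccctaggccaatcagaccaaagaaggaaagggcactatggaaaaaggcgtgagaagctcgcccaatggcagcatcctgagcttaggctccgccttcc

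Each value is the log2 difference of a probe set from its baseline over all samples of the authors, so that groups can be compared while levels of different genes cannot. The labelled tissue could not be checked by the level of liver markers for the same reason. All 8 hepatocyte markers stayed short of the threshold, with array means of 0.06 to 0.32 in control and -0.42 to 0.07 in HFD. Pck1 (-1.41) and Tat (-0.79) had the largest differences among them. The other hepatocyte markers differed by -0.26 to 0.08, with Alb at -0.06 and Ttr at 0.01. Of 10 Kupffer cell markers 7 were lower in HFD, with array means of 0.13 to 1.28 in control and -1.17 to 0.04 in HFD. Of 8 endothelial markers Flt4 was lower, with array means of 0.10 to 0.68 and -1.12 to 0.30, and of 5 neutrophil markers S100a9 was lower, with 0.11 to 0.47 and -1.34 to -0.16. All 8 endothelial and all 5 neutrophil differences lay below 0. Of 7 stellate cell markers Lrat was higher and Reln lower, with array means of -0.19 to 0.10 and -0.42 to 0.38, and of 5 adipocyte markers Cidea was higher, with -0.23 to -0.04 and 0.15 to 0.57. Cidea differed by 1.85, and the other 4 adipocyte markers by 0.02 to 0.14, none past the threshold. No biliary, lymphocyte, erythroid or striated muscle marker passed. Over all genes 3.37% were higher and 1.87% lower at the same threshold. The part of these markers in the results on the respiratory chain was not tested, and in bulk tissue fewer cells of a type and less RNA per cell cannot be told apart.

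HFD replicates 3 and 5 stood apart from the other 7 arrays, in the genes of the chain and also over all genes. The SD over the 89 genes was 0.29 in HFD replicate 3 and 0.45 in HFD replicate 5, against 0.10 to 0.17 in the other 7. Over all 17514 genes it was 0.31 and 0.40, against 0.24 to 0.28. In these arrays 50 and 56 of the 89 genes lay over 0.2 from the baseline, against 5 to 20 in the others. Genes lay on both sides of it, 25 above and 25 below in HFD replicate 3, and 24 above and 32 below in HFD replicate 5. These counts were not made over all genes. The values of these arrays went together gene by gene, with r = 0.81 across the 89 genes and r = 0.57 across all 17514, as a description over genes that are not independent replicates. In the same arrays the control probe sets for the 5′ end were low against those for the 3′ end of the same transcript. For actin the 5′ minus 3′ difference was -0.77 and -1.12, against -0.20 to 0.45 in the other 7 arrays, and for Gapdh it was -0.41 and -0.74, against 0.05 to 0.28. The mean of the 12 control probe sets for poly-A spikes was 0.95 and 1.11 in HFD replicates 3 and 5, against -1.07 to 0.40. Results are therefore given with and without these arrays.

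**Figure D1:**
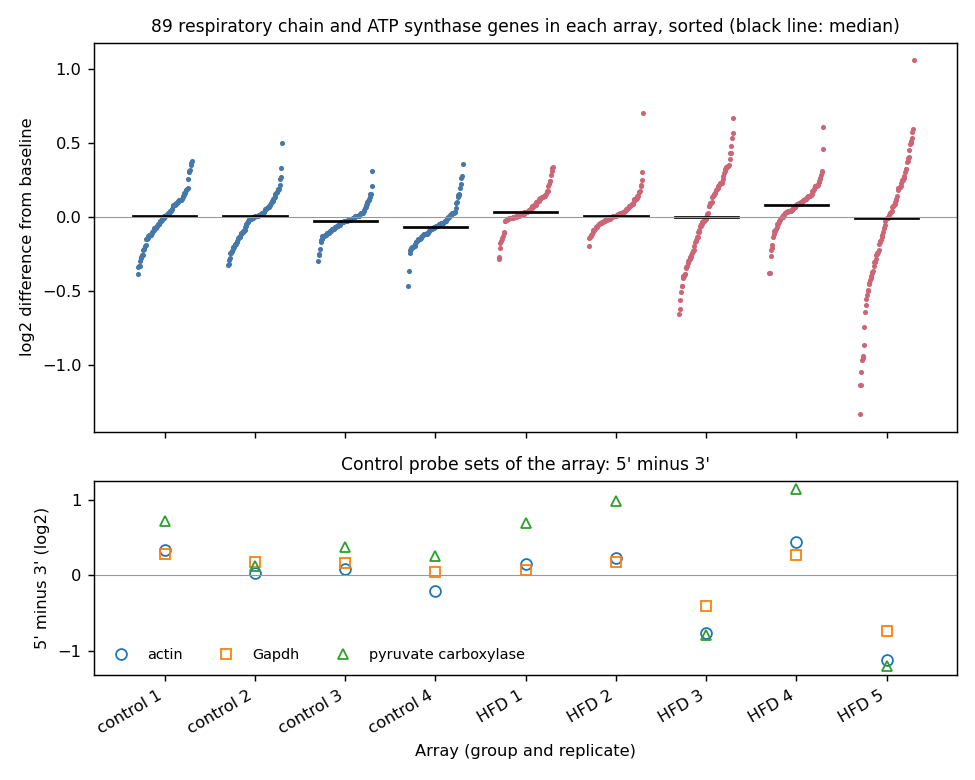
Upper panel: log2 difference from the baseline of each of the 89 genes (points, sorted within an array) in the 4 control and 5 HFD arrays, with the median as a black line. Lower panel: 5′ minus 3′ difference (log2) of the control probe sets for actin, Gapdh and pyruvate carboxylase in the same arrays. HFD replicates 3 and 5 have the widest spread over the genes (SD 0.29 and 0.45) and the lowest 5′ minus 3′ differences.

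Of the 89 genes, 1 was higher in HFD and none was lower at an adjusted p under 0.05 (limma, Benjamini-Hochberg over all 17514 genes). Over all genes 5.24% passed this threshold, 3.37% higher and 1.87% lower. The gene that rose was Sdhb, the iron-sulfur subunit of succinate dehydrogenase. At an unadjusted p under 0.05, 15 members passed, each of them higher in HFD, which is 16.9% of the 89 against 19.1% of all genes in either direction and 10.3% higher. The difference was above 0 in 49 of 89 members (55.1%) against 46.2% of all genes, with a median of 0.01 over the members and -0.02 over all genes. Only Ndufa12 differed by more than 0.5. The standard error of a member's difference had a median of 0.119, and the 9 arrays limit the size of difference that could be resolved.

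Without HFD replicates 3 and 5 the count above 0 was 71 of 89 (79.8%) against 49.3% of all genes, and the median was 0.09 against 0.00. No member passed the threshold in that fit by limma, in which 2.52% of all genes were higher and Sdhb had an adjusted p of 0.073. With the mean 5′ minus 3′ difference of actin and Gapdh as a covariate, 61 of 89 members (68.5%) lay above 0 against 48.1% of all genes. Sdhb and Ndufb3 were higher in the fit with this covariate (adjusted p = 0.033 and 0.047, limma), in which 4.04% of all genes were higher. When probe sets of a gene were averaged, 2 members were higher in all arrays (3.15% of all genes), without HFD replicates 3 and 5 (2.51%) and with the covariate (3.73%), in each case Sdhb and Ndufb3. With all arrays 54 of 89 averaged members (60.7%) lay above 0, against 46.9% of all genes. The fits with the covariate or without HFD replicates 3 and 5 were added after the data were seen.

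**Figure D2:**
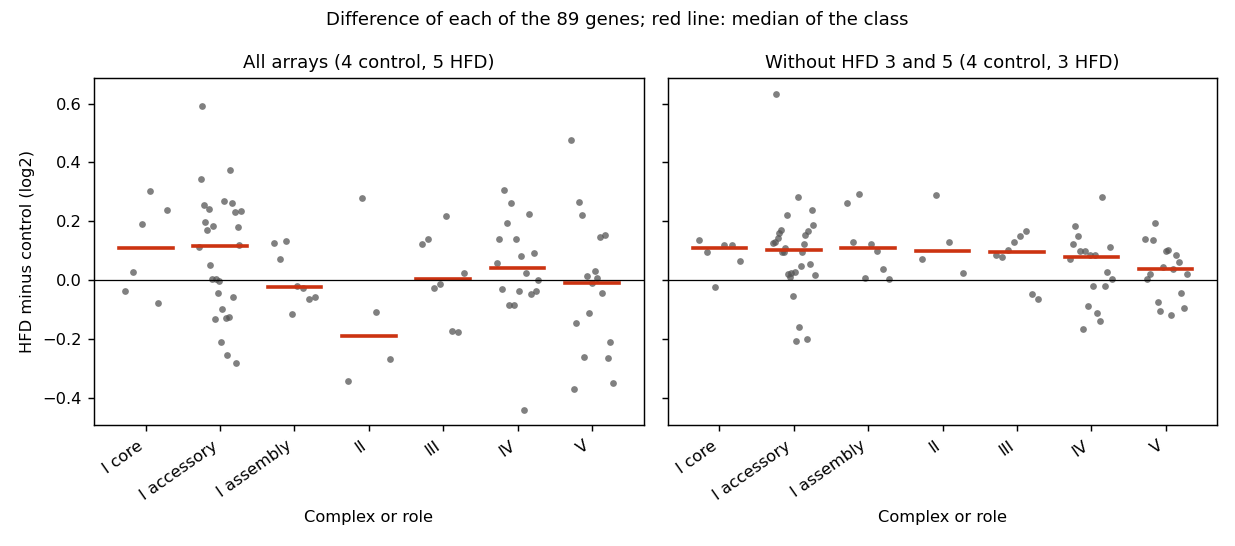
HFD minus control (log2) for each of the 89 genes (points) by complex or role, with the median of the class as a red line, for all 9 arrays (left) and without HFD replicates 3 and 5 (right). The median of complex II is -0.19 on the left and 0.10 on the right, and that of complex I assembly factors is -0.02 and 0.11.

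Complex I, the NADH dehydrogenase, takes electrons from NADH. None of its 6 core subunits in the list passed the threshold, and their median difference was 0.11, with 4 above 0. Ndufs8, a carrier of iron-sulfur clusters, was -0.34, -0.25, -0.11 and -0.01 in control and 0.01, 0.05, 0.43, -0.22 and 0.37 in HFD replicates 1 to 5. The groups overlapped through HFD replicate 4, and the difference was 0.30 ± 0.14 (SE, adjusted p = 0.280, limma). Ndufv2, which also binds an iron-sulfur cluster, differed by 0.24 ± 0.12 (adjusted p = 0.329), with its highest values, 0.35 and 0.49, in HFD replicates 3 and 5. Without those arrays Ndufs8 differed by 0.12 and Ndufv2 by 0.07. These values come from 1 of 6 probe sets for Ndufs8 and 1 of 3 for Ndufv2. With all arrays the probe sets ranged from -0.01 to 0.30 and from -0.08 to 0.24. Averaged over probe sets, Ndufs8 differed by 0.13 and Ndufv2 by 0.11. Ndufs1, a further iron-sulfur subunit of the peripheral arm, was 0.06, 0.01, -0.06 and -0.01 in control and 0.15, 0.12, -0.16, 0.14 and -0.44 in HFD. Its difference was -0.04 over all arrays and 0.14 without HFD replicates 3 and 5. Ndufv1, the NADH-binding subunit, had the same pattern, with -0.08 and 0.12. With all arrays its 3 probe sets ranged from -0.08 to 0.15, and their average differed by 0.06.

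The 28 accessory subunits, which surround and stabilise the core of complex I, had a median difference of 0.12, with 18 above 0. No accessory subunit passed the threshold. In 5 of them every HFD array lay above every control array, namely Ndufb3, Ndufa12, Ndufb8, Ndufa13 and Ndufa2. Over the 89 members this held for 9, against 5.62% of all genes with HFD above and 4.2% with HFD below, and it held for no member in the lower direction.

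Ndufb3, a subunit of the membrane arm, came closest to the threshold after Sdhb. It was -0.07, -0.10, -0.13 and -0.08 in control and 0.21, 0.18, 0.23, 0.18 and 0.07 in HFD, so that the groups stood apart and the lowest HFD value was replicate 5. Its difference was 0.27 ± 0.07 (1.20-fold, adjusted p = 0.059, limma). Ndufb3 has 1 probe set, and its adjusted p was 0.020 when the probe sets of all genes were averaged before the fit. Without averaging, it passed in none of the 9 fits that left out 1 array (adjusted p of 0.0536 to 0.150, limma). Without HFD replicates 3 and 5 together its adjusted p was 0.082.

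Ndufa12, a subunit of the peripheral arm, had the largest difference, 0.59 ± 0.16 (adjusted p = 0.064, limma). Its values were -0.03, -0.28, -0.03 and -0.46 in control and -0.02, 0.70, 0.16, 0.61 and 0.50 in HFD. HFD replicate 1 lay close to the highest controls, and without it the adjusted p was 0.030 (limma). That was the only one of the 9 fits leaving out 1 array in which Ndufa12 passed the threshold. Over these 9 fits its adjusted p ran from 0.030 to 0.172 (limma). These values come from 1 of 4 probe sets. The other 3 differed by -0.08, 0.16 and 0.19, and the average over probe sets differed by 0.22.

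Ndufb8, an accessory subunit of the membrane arm, was -0.09, -0.16, -0.13 and -0.04 in control and 0.02, -0.02, 0.31, 0.14 and 0.33 in HFD. The difference was 0.26 ± 0.10 over all arrays and 0.15 without HFD replicates 3 and 5. The other probe set of Ndufb8 differed by 0.03. With its probe sets averaged the groups overlapped, and the difference was 0.14. Ndufb7, also of the membrane arm, had a larger difference of 0.37 ± 0.17 (adjusted p = 0.255, limma) in which HFD replicates 3 and 5 were at 0.67 and 0.51, while the other 3 HFD arrays lay between -0.09 and 0.02. Without them the difference of Ndufb7 was 0.12. At the other end of the class, Ndufc2 (-0.28 ± 0.22) and Ndufb5 (-0.25 ± 0.20) reached -0.97 and -0.94 in HFD replicate 5, and without HFD replicates 3 and 5 both differed by 0.05. Each also had a probe set above 0 over all arrays (0.09 and 0.11). Averaged over probe sets they differed by -0.09 and -0.07.

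Ndufa10, a subunit related to nucleoside kinases, was read by 2 probe sets that agreed in sign. The more variable one differed by 0.34 ± 0.15 (adjusted p = 0.240, limma), and by 0.13 without HFD replicates 3 and 5. The other was -0.06, -0.14, -0.15 and -0.16 in control and 0.16, 0.06, 0.34, 0.28 and 0.51 in HFD, with no overlap. It passed the threshold when each probe set was tested on its own (0.40 ± 0.09, adjusted p = 0.040, limma over 32801 probe sets). Of the 175 probe sets 2 passed in that fit, against 4.0% of all probe sets.

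The 8 assembly factors of complex I, which build the complex and are absent from the finished enzyme, had a median difference of -0.02, with 3 above 0 and none past the threshold. Ndufaf1, which helps assemble the membrane arm, differed by 0.13 ± 0.12, and was 0.28, 0.12, 0.02, 0.29 and -0.23 in HFD replicates 1 to 5 against 0.11, -0.02, -0.09 and -0.12 in control. Ndufaf3, a partner of Ndufaf4 in early assembly, differed by 0.13 ± 0.15, with -0.43 in HFD replicate 5 and 0.09 to 0.34 in the other HFD arrays. Without HFD replicates 3 and 5 all 8 differences were above 0, up to 0.26 for Ndufaf1 and 0.29 for Ndufaf3, and their median was 0.11.

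Complex II, succinate dehydrogenase, is shared with the citric acid cycle. Sdhb rose by 0.28 ± 0.07 (1.21-fold, adjusted p = 0.041, limma). It was -0.12, -0.12, -0.15 and -0.12 in control and 0.17, 0.14, 0.15, 0.19 and 0.12 in HFD, so that both groups were tight and did not overlap. HFD replicates 3 and 5 were not extreme for this gene. The size of the difference held at 0.27 to 0.29 when each array was left out in turn, but none of these 9 fits kept it past the threshold, with adjusted p of 0.0553 to 0.110.

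The other 3 subunits of complex II had differences below 0 in the probe set that stood for each gene. Sdha, the flavoprotein that oxidises succinate, was 0.10, 0.06, -0.06 and -0.06 in control and 0.06, 0.06, -0.57, 0.12 and -1.33 in HFD. The HFD group thus held both the highest and the lowest arrays, and the difference was -0.34 ± 0.27 (adjusted p = 0.551, limma). Without HFD replicates 3 and 5 it was 0.07. The membrane anchors Sdhc and Sdhd differed by -0.11 and -0.27, again with their lowest values in HFD replicate 5 (-0.56 and -0.87), and by 0.13 and 0.02 without those arrays. Of the 4 probe sets of Sdha 2 were above 0, up to 0.18, and of the 2 of Sdhd 1 was above 0 (0.07). Both probe sets of Sdhc were below 0. With probe sets averaged and all arrays, Sdha differed by -0.04, Sdhc by -0.11 and Sdhd by -0.10.

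**Figure D3:**
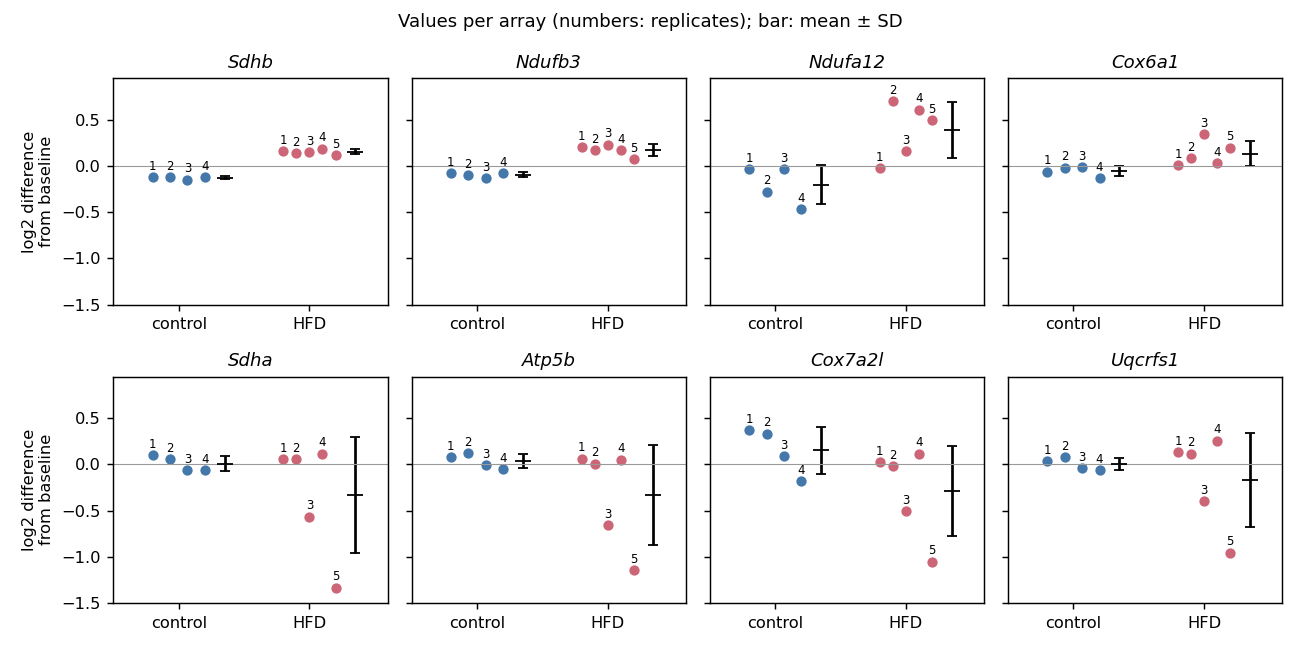
Log2 difference from the baseline in each array for 8 genes, with the replicate number above each point and the mean ± SD of the group beside it (4 control arrays in blue, 5 HFD arrays in red). Sdhb, Ndufb3, Ndufa12 and Cox6a1 have every HFD array above every control array. Sdha, Atp5b, Cox7a2l and Uqcrfs1 have HFD replicates 3 and 5 below the other arrays, down to -1.33 for Sdha.

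Complex III, which passes electrons from ubiquinol to cytochrome c, had a median difference of 0.00, with 4 of 8 above 0 and none past the threshold. Uqcrc2, a core protein, was -0.23, -0.21, -0.01 and -0.15 in control and 0.01, 0.02, 0.14, -0.03 and 0.19 in HFD, a difference of 0.22 ± 0.08 (adjusted p = 0.189, limma) with an overlap of 1 array in each group, and of 0.15 without HFD replicates 3 and 5. Uqcrfs1, the Rieske iron-sulfur protein, was 0.04, 0.08, -0.04 and -0.06 in control and 0.14, 0.12, -0.40, 0.26 and -0.95 in HFD. Its difference was -0.17 ± 0.22 over all arrays and 0.17 ± 0.08 without HFD replicates 3 and 5. Uqcrh, the hinge protein, differed by -0.18 in both of its probe sets, and Uqcr11, a small subunit, by 0.14 ± 0.09. Without those arrays the differences were -0.05 and 0.08.

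Complex IV, cytochrome c oxidase, had a median difference of 0.04, with 11 of 18 above 0 and none past the threshold. Cox5b, a subunit of the matrix side, was -0.26, -0.18, -0.07 and -0.05 in control and 0.03, 0.00, 0.40, -0.00 and 0.41 in HFD. The groups did not overlap, and the difference was 0.31 ± 0.12 (adjusted p = 0.173, limma). It was 0.15 without HFD replicates 3 and 5. Of the 6 probe sets of Cox5b 4 were above 0 and 2 below, from -0.21 to 0.31, so that the direction depends on the probe set. Probe sets with the suffix _x_at or _s_at may also read similar transcripts of other genes, and without them Cox5b differed by -0.21.

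Cox6a1, the form of its subunit known from liver and most other tissues, was -0.06, -0.02, -0.01 and -0.13 in control and 0.01, 0.08, 0.35, 0.03 and 0.20 in HFD. Groups did not overlap, and the difference was 0.19 ± 0.09 (adjusted p = 0.279, limma). Cox7a2l, a protein similar to Cox7a2, had the most negative difference of all 89 genes, -0.44 ± 0.23 (adjusted p = 0.344, limma). It was 0.37, 0.33, 0.09 and -0.18 in control and 0.02, -0.02, -0.51, 0.12 and -1.05 in HFD. All 3 of its probe sets were below 0, and without HFD replicates 3 and 5 the difference was -0.11 ± 0.14.

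Several subunits of complex IV exist in forms known from liver and most tissues and forms known from muscle, testis, lung or low oxygen. No form of any pair passed the threshold. Cox4i1 differed by 0.06 and its lung form Cox4i2 by 0.14. Cox6a1 differed by 0.19 and its heart and muscle form Cox6a2 by -0.09, and Cox6b1 by 0.26 and its testis form Cox6b2 by -0.08. Cox7a2 differed by 0.08 and the muscle form Cox7a1 by -0.04, and Cox8a by 0.23 and the muscle form Cox8b by -0.05. Ndufa4 differed by -0.04 and Ndufa4l2, a form induced by low oxygen, by 0.00. Without HFD replicates 3 and 5 Ndufa4 turned to 0.11, Cox6b1 was at 0.10, Cox6a1 at 0.10 and Cox6a2 at -0.17, and Cox7a1 and Cox8b were each at -0.02. The difference between the forms of a pair was not tested. The 10 markers of striated muscle gave array means between -0.07 and 0.04 in both groups, and none of them passed the threshold.

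Complex V had a median difference of -0.01, with 8 of 17 above 0 and none past the threshold. Among the subunits of the catalytic head and central stalk, Atp5e, the epsilon subunit, was -0.05, -0.05, -0.06 and -0.20 in control and 0.05, 0.05, 0.21, 0.21 and 0.15 in HFD. The groups did not overlap, and the difference was 0.22 ± 0.08 (adjusted p = 0.145, limma). Atp5d, the delta subunit, differed by 0.27 ± 0.11 (adjusted p = 0.214) over all arrays and by 0.14 without HFD replicates 3 and 5. Atp5b, the catalytic beta subunit, was 0.08, 0.13, -0.01 and -0.05 in control and 0.06, 0.01, -0.66, 0.05 and -1.14 in HFD. Its difference went from -0.37 ± 0.24 to 0.00 ± 0.08 without HFD replicates 3 and 5.

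Atp5pb, a subunit of the peripheral stalk, behaved like Atp5b, with -0.63 and -1.14 in HFD replicates 3 and 5 and -0.02 to 0.10 in the other HFD arrays. Its difference was -0.35 ± 0.23 over all arrays and 0.02 without those arrays. Atp5g1, Atp5g2 and Atp5g3, which encode the same mature ring subunit, differed by -0.26, 0.01 and -0.11, and by -0.07, -0.10 and 0.05 without those arrays. Atp5a1, the alpha subunit, had the largest positive difference of the complex, 0.47 ± 0.23 (adjusted p = 0.291, limma), and its probe sets disagreed. Atp5a1 differed by 0.14 without HFD replicates 3 and 5 and by 0.14 with its probe sets averaged, in both cases less than Atp5e (0.19 and 0.22).

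**Figure D4:**
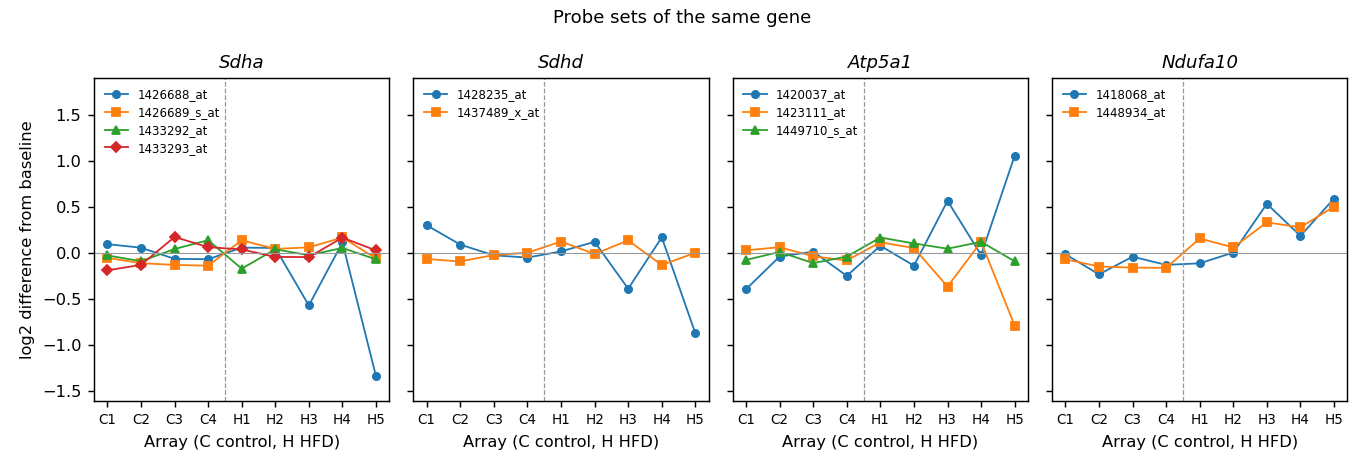
Log2 difference from the baseline in each array (C, control; H, HFD; dashed line between the groups) for every probe set (lines) of Sdha, Sdhd, Atp5a1 and Ndufa10. Probe sets of Sdha, Sdhd and Atp5a1 part in HFD replicates 3 and 5, with 1.06 and -0.79 for Atp5a1 in HFD replicate 5, while both probe sets of Ndufa10 lie high there.

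Probe sets of the same gene moved apart in HFD replicates 3 and 5. For Atp5a1, 1 probe set was 0.57 and 1.06 in these arrays and another was -0.36 and -0.79. For Sdha, 1 of 4 probe sets was -0.57 and -1.33, and the other 3 lay between -0.07 and 0.07. For Sdhd the values were -0.38 and -0.87 in 1 probe set and 0.14 and 0.01 in the other. Over the 49 members with several probe sets, the range between probe sets of a gene exceeded 0.5 in 8 genes in HFD replicate 3 and 18 in HFD replicate 5, against 0 to 4 in the other 7 arrays. This count was not made over all genes. In 14 of the 49 members every probe set differed above 0, in 8 every probe set differed below 0, and in 27 the signs were mixed. Of all 175 probe sets 106 (60.6%) lay above 0, against 48.0% of all probe sets.

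Genes that build or feed the chain were read from lists of the pathway. For the counts in all of these lists, the share over all genes was 3.37% higher and 1.87% lower. Of 42 further assembly factors 3 rose and none fell. These were Tmem186 (0.49 ± 0.10), which takes part in building complex I, and Sco2 (0.44 ± 0.09) and Coa6 (0.43 ± 0.08), which deliver copper to complex IV, with adjusted p of 0.024, 0.023 and 0.013 (limma). Coa6 was -0.19, -0.11, -0.28 and -0.18 in control and 0.27, 0.11, 0.27, 0.34 and 0.17 in HFD, without overlap. Tmem186 differed by 0.11 with its probe sets averaged, and was then not past the threshold. Without any one of control replicates 2, 3 and 4 Tmem186 was not past it either (adjusted p of 0.0569 to 0.0848, limma), nor was Sco2 without any one of the 4 control arrays (0.0532 to 0.0663). Of 12 genes of ubiquinone synthesis Coq10a, a ubiquinone-binding protein, rose (0.42 ± 0.10, adjusted p = 0.042), and it passed in none of the 9 fits that left out 1 array (adjusted p of 0.0558 to 0.0990, limma). With its probe sets averaged Coq10a differed by 0.16, not past the threshold.

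Among 22 regulators of mitochondrial biogenesis, Pprc1, a PGC-1 related coactivator, fell by 0.71 ± 0.14 (adjusted p = 0.016, limma) and none rose. It was 0.23, 0.99, 0.50 and 0.66 in control and -0.25, -0.08, -0.13, -0.08 and -0.02 in HFD. Among 12 genes of electron entry, the glycerol phosphate shuttle enzymes Gpd2 (1.22 ± 0.19, 2.33-fold, adjusted p = 0.006) and Gpd1 (0.83 ± 0.16, adjusted p = 0.014) rose. Got1, the cytosolic aspartate aminotransferase of the malate-aspartate shuttle, fell by 1.18 ± 0.27 (adjusted p = 0.035). Gpd2 was -0.80, -0.71, -0.62 and -0.23 in control and 0.27, 0.23, 0.74, 0.83 and 1.07 in HFD, and it stayed past 0.05 with each array left out in turn. Got1 lost the threshold without any one of control replicates 2, 3 and 4 or HFD replicates 1, 2, 3 and 5 (adjusted p of 0.0603 to 0.111, limma), and Gpd1 lost it without control replicate 2 (adjusted p = 0.0564).

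Of 24 genes of the citric acid cycle and its entry, Pdk2 (0.69 ± 0.17, adjusted p = 0.040), which inhibits pyruvate dehydrogenase, and Pcx (0.67 ± 0.12, adjusted p = 0.012), the pyruvate carboxylase, rose, and Ogdh, of the 2-oxoglutarate dehydrogenase, fell by 0.41 ± 0.10 (adjusted p = 0.043). Ogdh differed by -0.16 with probe sets averaged, and was then not past the threshold, nor was it without any one of control replicates 1, 2 and 3 or HFD replicates 1, 2, 3 and 5 (adjusted p of 0.0733 to 0.125, limma). Without any one of the 4 control arrays or HFD replicate 3, Pdk2 was not past it (adjusted p of 0.0623 to 0.115). None of 12 genes of proton leak and nucleotide exchange, 7 mitochondrial antioxidant genes and 3 further subunits and carriers passed. In these lists Slc25a5, an ADP/ATP carrier, differed by -0.32 ± 0.17, and Ckmt1, a mitochondrial creatine kinase, by -0.22 ± 0.11. Gpx4, which reduces lipid peroxides, differed by 0.38 ± 0.16. Gsr, the glutathione reductase, differed by -0.59 ± 0.22, and with the 5′ minus 3′ covariate by -0.35 ± 0.09, past the threshold (adjusted p = 0.048, limma). Cycs, the cytochrome c gene, differed by -0.18 ± 0.17 and Cyc1, cytochrome c1 of complex III, by 0.08 ± 0.09. Without HFD replicates 3 and 5 Cycs turned to 0.09, Cyc1 was at 0.18, Slc25a5 at -0.06, Gpx4 at 0.18, Gsr at -0.26 and Ckmt1 at -0.26, none past the threshold. In the same fit Coa6, Sco2, Gpd2, Pcx and Pprc1 remained past the threshold (adjusted p of 0.021 to 0.046, limma). There Tmem186, Coq10a, Gpd1, Got1, Pdk2 and Ogdh kept their direction and were not past it (adjusted p of 0.053 to 0.136).

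Beside these, the 76 mitochondrial ribosomal protein genes, which serve the translation of the chain's mitochondrial subunits, had a median difference of 0.00, with 1 higher and none lower. The 49 cytosolic ribosomal protein genes had a median of -0.34, with none higher and 13 lower. Over all genes 3.37% were higher and 1.87% lower. The median of the 89 genes of the chain was 0.01. The differences between these lists were not tested.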

How the data were processed

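Liver RNA of 4 control and 5 HFD samples was read on Affymetrix arrays. RMA summaries, quantile normalization and a shift of every probe set to the median of all samples were the steps of the authors, per the design text. The deposited values are read as log2 differences from that baseline, although the log base is not given in the sources used here. No filter on low signal was possible. Replicates were numbered in order of deposition, which pairs none.

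Of 41842 probe sets 60 control probe sets were left out, and 32801 paired with exactly 1 symbol gave 17514 genes. The probe set with the largest SD over all 9 arrays stood for a gene, which favours larger differences. Another 10 probe sets that name a gene fitting the symbol rule together with another gene were left out, and none of them passed the threshold. Ndufa11 and Ndufs6 were read only by such probe sets, so these genes are absent from the members. HFD was compared with control in limma 3.58.1 (R 4.3.3; lmFit and eBayes, two-sided, no covariate, Benjamini-Hochberg over all genes, threshold 0.05). The fit was tested on simulated data.

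Members and lists were chosen with earlier results of these data known, so a list is described by counts and its median. Genes named are members past the threshold, in each class those with the lowest p or the largest differences, pairs of tissue forms, and in each pathway list those past the threshold or else the 2 with the lowest p. Members named beyond that rule were chosen after their values were seen.

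Alternatives were other scaling, averaging of probe sets, each probe set on its own, leaving out probe sets ending in _x_at or _s_at or the 25% of genes with the smallest SD, robust eBayes, array weights, a stricter threshold and leaving out each array. Leaving out HFD replicates 3 and 5 and the 5′ minus 3′ covariate were added after seeing the data.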

Additional observations from a re-analysis of the deposited data

Results flagged for a closer look

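Groups of values came from named genes and from medians over each class and all members. Of these 128 groups, 4 held an array far from the others, where chance gives about 1 in 20. Atp5e was -0.20 in control replicate 4, against -0.06 to -0.05 in the other control arrays. Ndufaf4 was -0.49 in HFD replicate 5, against -0.05 to 0.09 in the other HFD arrays. Sdhb was -0.15 in control replicate 3, against -0.12 in the other control arrays. Got1 was 0.25 in control replicate 1, against 1.08 to 1.12 in the other control arrays.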

How the results depend on the processing

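The count of members higher in HFD was 1. It was 2 with probe sets averaged, with array weights, with each probe set on its own, with the 5′ minus 3′ covariate (with or without averaging) and without HFD replicates 3 and 5 with averaging. It was 0 without the 25% of genes with the smallest SD, at an adjusted p under 0.01 and without HFD replicates 3 and 5, and 0 to 1 with each array left out. No setting gave a lower member. All genes past the threshold, 5.24% of those tested, numbered 245 at 0.01 and 385 to 996 with each array left out, where fewer arrays enter.

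The median of the members, 0.01, was 0.0136 to 0.0623 with each array left out, 0.0868 without HFD replicates 3 and 5 (0.0743 averaged) and 0.0764 with the covariate (0.0713 averaged). It was -0.0059 without the 25% of genes with the smallest SD, 0.0012 without probe sets ending in _x_at or _s_at, 0.0416 with probe sets averaged and 0.0459 with array weights. For complex I accessory subunits it was 0.17 without the 25% of genes with the smallest SD, and for the assembly factors 0.11 without HFD replicates 3 and 5 (0.12 averaged). For the core subunits it was 0.0627 with probe sets averaged, 0.0424 without probe sets ending in _x_at or _s_at, 0.19 without the 25%, 0.0690 with array weights and 0.0710 to 0.137 with each array left out. Complex II, at -0.19, was at 0.10 without HFD replicates 3 and 5 (0.10 averaged), -0.0709 with probe sets averaged, -0.0624 with array weights, -0.0022 with the covariate (0.0458 averaged) and -0.261 to -0.0449 with each array left out. Complex V, at -0.01, ran from -0.0778 without the 25% to 0.0463 without HFD replicates 3 and 5 with averaging. Complex III was at 0.0947 without them (0.0820 averaged) and 0.0801 with the covariate (0.0735 averaged). Complex IV was at -0.0297 without probe sets ending in _x_at or _s_at and -0.0023 without the 25%. The cause of these shifts was not tested. No called value changed sign. No paired analysis was possible because the labels give the groups no shared replicate numbers. Centred values hold no signal over background, so that weak probe sets could not be set apart.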
